A study of Mus musculus with 8 samples.

Results

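The G1 cyclins and the inhibitors of their kinases are described here in mouse embryonic stem (ES) cells, as 10 named genes of the 23337 gene names in the deposited table. The genes were chosen by symbol: the D cyclins *Ccnd1*, *Ccnd2* and *Ccnd3*, the E cyclins *Ccne1* and *Ccne2*, the kinase gene *Cdk4*, the pocket protein gene *Rb1*, the KIP inhibitor gene *Cdkn1b*, and the INK4 inhibitor genes *Cdkn2a* and *Cdkn2b*. All 10 passed the filter on low values, a mean of at least 10 normalized counts. The 8 RNA-seq libraries came from 4 ES cell clones (6, 20, 30 and 36), with a library of every clone from passage 6 and from passage 16. A passage is one transfer of a growing culture to new dishes. Both groups carry the same labels apart from the passage: strain 129S1, genotype wild type, origin from mouse blastocysts, culture in DMEM with LIF. Per the design text every line also carries GFP at the Rosa26 locus, and each clone is 1 independent line, so that a clone has 1 library per passage. The methods of the study name C57BL6 for some of its cultured ES cell clones and 129S1 for others, without saying which were sequenced.

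D cyclins bind and activate Cdk4 and its relative Cdk6, and E cyclins bind and activate Cdk2. Both kinds of kinase phosphorylate the Rb1 protein, which otherwise holds back the E2F transcription factors and the genes of DNA replication that they drive. INK4 proteins, encoded by *Cdkn2a*, *Cdkn2b* and further genes, block Cdk4 and Cdk6, while the KIP protein p27, encoded by *Cdkn1b*, mainly blocks the Cdk2 complexes. Mouse ES cells are known for a short G1 phase, for high E cyclin and Cdk2 activity and for little INK4 activity.

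*Cdkn2a* makes a pair of unrelated proteins from separate start sites that share their later exons, the INK4 protein p16 and ARF, which stabilizes p53. The table holds 1 count for both. The bases before each start are shown because they belong to the transcripts that this count sums, and those of *Ccne1* and *Cdk4* because these genes varied together over the libraries (Pearson r = 0.81). The 250 bases upstream of the RefSeq start (GRCm38.p6, minus strand for *Cdkn2a* and *Ccne1*, plus strand for *Cdk4*) run 5′ to 3′ as follows, with capitals marking a match to an E2F motif.
*Cdkn2a*, start on the ARF side, chr4:89294620-89294869: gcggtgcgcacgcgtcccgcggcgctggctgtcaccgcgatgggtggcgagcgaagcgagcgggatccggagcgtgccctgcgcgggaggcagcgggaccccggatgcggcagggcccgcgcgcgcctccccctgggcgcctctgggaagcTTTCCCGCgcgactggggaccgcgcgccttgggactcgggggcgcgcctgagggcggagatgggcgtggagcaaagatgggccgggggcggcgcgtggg
*Cdkn2a*, start on the INK4 side, chr4:89282193-89282442: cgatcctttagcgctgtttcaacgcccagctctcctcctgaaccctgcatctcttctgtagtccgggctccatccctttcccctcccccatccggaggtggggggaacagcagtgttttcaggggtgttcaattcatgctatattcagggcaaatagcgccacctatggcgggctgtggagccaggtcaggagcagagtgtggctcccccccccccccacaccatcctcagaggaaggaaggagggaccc
*Ccne1*, chr7:38107491-38107740: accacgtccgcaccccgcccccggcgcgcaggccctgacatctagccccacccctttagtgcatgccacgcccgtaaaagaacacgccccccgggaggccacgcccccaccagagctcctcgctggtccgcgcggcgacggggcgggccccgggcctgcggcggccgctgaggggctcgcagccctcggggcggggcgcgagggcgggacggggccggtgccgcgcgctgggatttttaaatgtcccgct
*Cdk4*, chr10:127063285-127063534: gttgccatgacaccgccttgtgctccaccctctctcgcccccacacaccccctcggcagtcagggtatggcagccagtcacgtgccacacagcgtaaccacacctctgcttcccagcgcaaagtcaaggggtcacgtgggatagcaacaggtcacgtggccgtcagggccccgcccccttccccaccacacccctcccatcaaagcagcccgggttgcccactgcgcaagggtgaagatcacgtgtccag
The motif forms searched on both strands were TTTCCCGC, TTTCGCGC, TTTGCCGC and TTTGGCGC. RefSeq promoter windows of 300 bases were at hand for 6 of the 10 genes, 8 windows in all, and only the ARF-side window of *Cdkn2a* held a match, a TTTCCCGC that begins at position -99 from the start. Of all 32817 promoter windows, 2.26% held any of these forms. The ARF-side sequence shown is 78.4% G and C, against 60.0% on the INK4 side, 76.0% for *Ccne1* and 64.4% for *Cdk4*.

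The deposited values are gene counts divided by 1 size factor per library, called normalized counts here, and the recovered totals lay between 21394069 and 34295561 reads per library. Part of the table was out of register between libraries. Of all names, 5080 (21.8%) sit in 644 groups of names such as *Cdk1* and *Cdk10*, where a further digit makes another name. Within these groups 7 of the 8 libraries had counts on the wrong name. Restoring the order changed 1629 names in 1 or more libraries, between 494 and 1016 names in each of the 7. All 10 genes lie outside these groups. There the names alone set the order, so each gene stood in order with both neighbours in 8 of 8 libraries whatever its counts. Restoring acts only within the groups, so it left the values of the 10 as deposited. Neither result is a separate check of their counts. *Cdk1*, the mitotic kinase gene, shows the fault: it is listed at 5508 normalized counts in the passage 6 library of clone 6 and between 173 and 225 in the other 7, and between 5432 and 6581 in all 8 once the order is restored. One library also stands apart by chromosome. In the passage 16 library of clone 6 the median gene of chromosome 6 lay 0.26 above its mean over the libraries (log2), against at most 0.07 in any other chromosome or library. *Ccnd2* and *Cdkn1b* are on chromosome 6.

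Levels were taken per kilobase of annotated exon, which allows them to be compared between genes. On this scale the kinase gene, *Ccne1* and *Ccnd3* stood far above the inhibitor genes *Cdkn1b*, *Cdkn2a* and *Cdkn2b*. *Cdk4* had a mean of 6564 ± 309 normalized counts per kilobase (SD, n = 8 libraries). *Ccne1* had 3593 ± 686 and *Ccnd3* 2862 ± 318, and the ranges of these cyclins overlapped. Among 11077 names with a known exon length, those means exceeded 98.5%, 96.4% and 95.4% of the names. *Ccnd1* followed with 846 ± 178, which exceeded 80.9% of the names and did not overlap with its neighbours in the order. Divided by the length over all annotated exons, *Ccnd3* had 798 per kilobase and *Ccnd1* 672.

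The chosen inhibitor genes *Cdkn2a*, *Cdkn2b* and *Cdkn1b* and the pocket protein gene *Rb1* formed a lower tier. The relatives of *Cdkn1b* were not among the chosen genes and lay above it, *Cdkn1a* at 701 normalized counts per kilobase and *Cdkn1c* at 362. *Cdkn2a* had 248 ± 39.3 normalized counts per kilobase, *Cdkn1b* 233 ± 47.7 and *Rb1* 227 ± 21.8, and these neighbours overlapped. *Ccne2* had 174.6 ± 14.3 and did not overlap with *Rb1*. Below them stood *Cdkn2b* with 95.6 ± 21.7 and *Ccnd2* with 83.3 ± 17.6, which overlapped with each other and not with *Ccne2*. These means exceeded 55.4%, 53.9%, 53.3%, 47.8%, 36.9% and 34.9% of the names. The transcripts of these inhibitors were thus near or below the middle of the expressed names and not absent. With the longest RefSeq mRNA as length, *Cdkn1b* had 443 per kilobase and stood above *Cdkn2a* at 325.

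**Figure D1:**
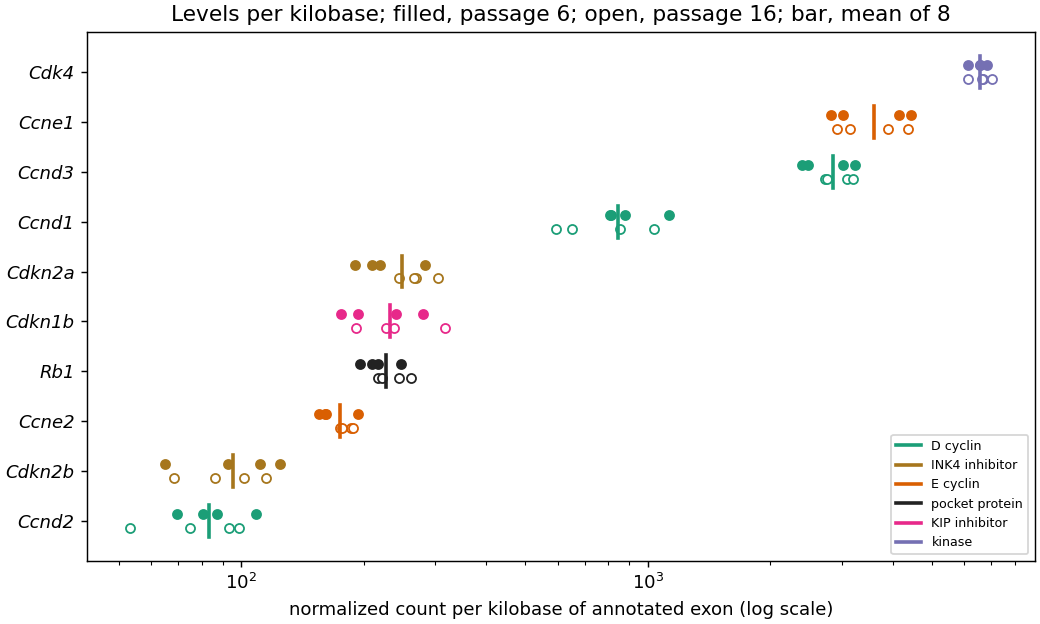
Level of each gene on a logarithmic axis, in normalized counts per kilobase of annotated exon. Filled points are the 4 passage 6 libraries, open points the 4 passage 16 libraries and bars the mean of 8. *Cdk4* lies between 6118 and 7005 and *Ccnd2* between 53.3 and 109, with the inhibitors and *Rb1* below *Ccnd1*.

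Among the D cyclins, which couple growth signals to Cdk4, *Ccnd3* made up between 71.3% and 81.8% of the summed level per kilobase, *Ccnd1* between 15.7% and 26.8% and *Ccnd2* between 1.25% and 3.27%. These shares depend on the exon length: over all annotated exons *Ccnd3* made up between 46.8% and 61.5% and *Ccnd1* between 33.7% and 50.01%. *Ccnd3* (chr17:47505051-47599691) had 6076, 7924, 7371 and 5873 normalized counts at passage 6 (clones 6, 20, 30 and 36), and 6677, 7561, 7804 and 6747 at passage 16. Clones 20 and 30 were above clones 6 and 36 at both passages. *Ccnd1* (chr7:144929931-144939925) had 3024, 3295, 4228 and 3039 at passage 6, and 3195, 2224, 3876 and 2429.7 at passage 16. Clone 30 was the highest at both passages, and the ranges of the passages overlapped. *Ccnd2* (chr6:127125162-127152193) had 587, 467, 540.3 and 728 at passage 6, and 502, 628, 358 and 661 at passage 16. Clone 36 was the highest at both passages, and the lowest library was clone 30 at passage 16.

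Of the E cyclins, which activate Cdk2 at the end of G1, *Ccne1* made up between 94.3% and 96.2% of the summed level per kilobase. *Ccne1* (chr7:38097984-38107534) had 5636, 8274, 8885 and 6055 normalized counts at passage 6 in the same clone order, and 7796, 5835, 8728 and 6271 at passage 16. Clone 30 was high and clone 36 low at both passages, while clones 6 and 20 exchanged places. *Ccne2* (chr4:11191351-11204779) had 514, 517, 619.9 and 496 at passage 6, and 595, 559.6, 565 and 603 at passage 16, with overlapping ranges.

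*Cdk4* (chr10:127063534-127067920), the kinase bound by the D cyclins, had 12561, 13438, 13997 and 13452 normalized counts at passage 6, and 13732, 12591, 14381 and 13657 at passage 16. It varied least of the 10: its SD over the libraries was 0.07 on the log2 scale, smaller than that of all but 10.0% of 9444 names with a mean of at least 100. *Rb1* (chr14:73183673-73325822), the target of the cyclin-bound kinases, had 1013, 974, 913 and 1148 at passage 6, and 1011, 1031, 1137 and 1216 at passage 16. Clone 36 was the highest at both passages and the ranges overlapped.

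*Cdkn1b* (chr6:134920401-134925513), which encodes p27, had 1271, 801, 879 and 1094 normalized counts at passage 6, and 1445, 1031, 872 and 1084 at passage 16. Clone 6 was the highest at both passages. The chromosome 6 median of clone 6 lay at -0.01 at passage 6 and at 0.26 at passage 16, and its part in these values was not tested. *Cdkn2a* (chr4:89274471-89294653) had 333, 257, 223 and 246 at passage 6, and 316, 311, 286 and 357 at passage 16. It was higher at passage 16 in 3 of 4 clones and lower in clone 6, with overlapping ranges. *Cdkn2b* (chr4:89306299-89311039), the neighbouring INK4 gene, had 155, 173, 90.3 and 129 at passage 6, and 94.7, 159.7, 119.9 and 141 at passage 16. Its counts were the lowest of the 10, from 108 to 192 reads per library, and its log2 SD of 0.34 the largest.

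**Figure D2:**
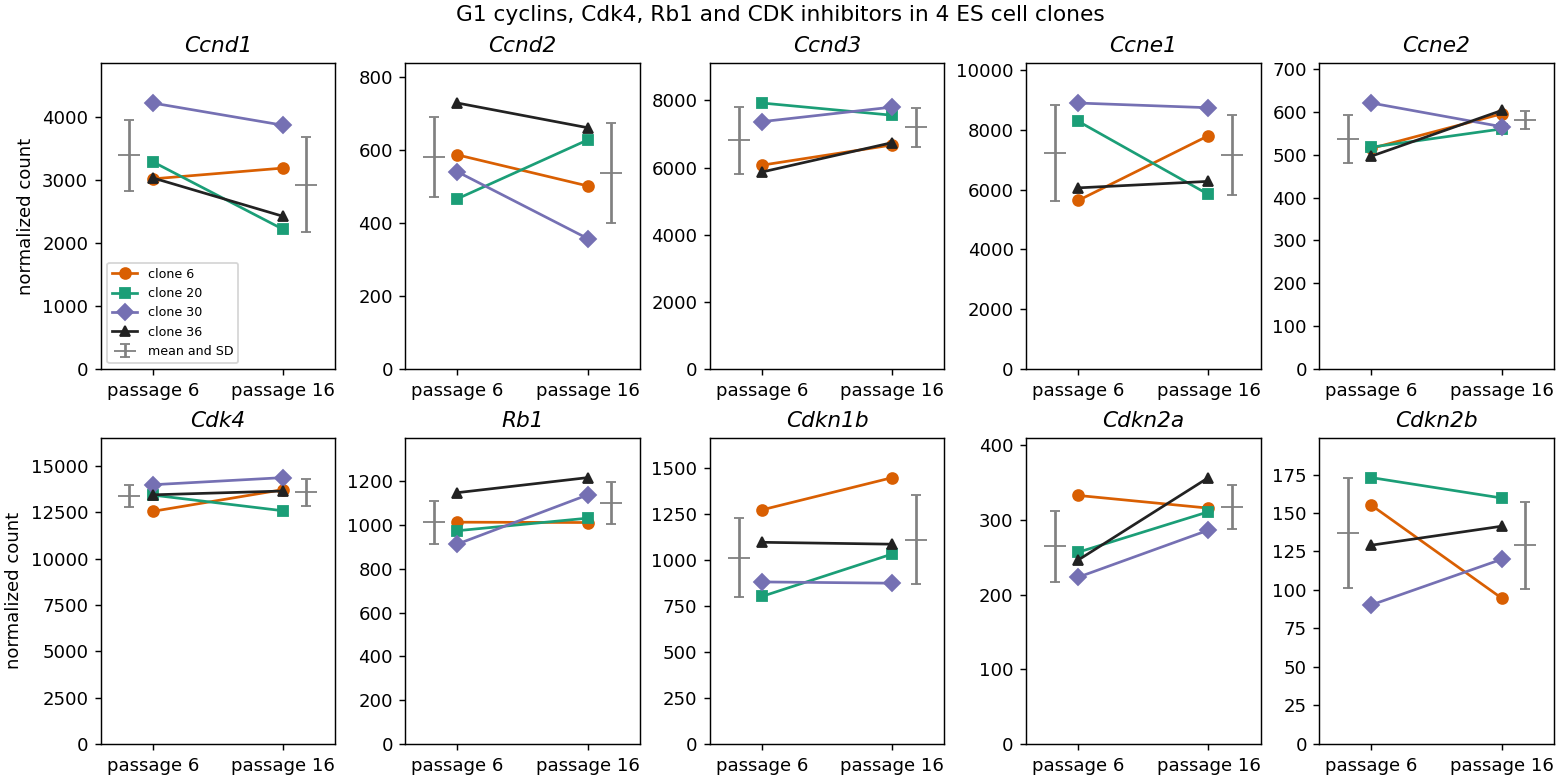
Normalized count of each gene at passage 6 and passage 16, with a line for each clone, and the mean and SD of 4 libraries in grey. Every vertical axis starts at 0, and the passages overlap in all 10 panels, as for *Cdkn2a*, with 223 to 333 at passage 6 and 286 to 357 at passage 16.

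Summed per kilobase, the D cyclins lay between 8.55 and 16.5 times the INK4 genes *Cdkn2a* and *Cdkn2b* over the 8 libraries. The E cyclins lay between 7.53 and 18.1 times this INK4 sum. Left out of it were the INK4 genes *Cdkn2d*, at 185 per kilobase, and *Cdkn2c*, at 7.60. The *Cdkn2a* count in it also includes ARF transcripts. The E cyclins lay between 10.7 and 24.4 times *Cdkn1b*, and between 0.82 and 1.12 times the D cyclins. Left out of the comparison with *Cdkn1b* were its relatives *Cdkn1a*, at 701 per kilobase, and *Cdkn1c*, at 362. Both lay above the 233 of *Cdkn1b*, so the ratio to all of these inhibitors together would be lower. Over all annotated exons the D cyclins lay between 3.34 and 7.03 times the INK4 genes, and the E cyclins between 1.62 and 2.08 times the D cyclins. With the longest RefSeq mRNA the E cyclins lay between 5.63 and 12.9 times *Cdkn1b*. The ratio of D cyclins to INK4 genes was 12.1 ± 3.34 at passage 6 and 10.6 ± 1.81 at passage 16 (SD, n = 4 each). The highest ratio, 16.5, was clone 30 at passage 6, where *Cdkn2a* and *Cdkn2b* were both at their lowest in that passage. These are ratios of RNA, and no protein or kinase activity was measured.

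No change with passage was detected in any of the 10 genes. In limma on log2(normalized count + 1), with Benjamini-Hochberg adjustment over all 14791 names tested, 0 of 10 passed an adjusted p of 0.05, the lowest being 0.947. Over all names the same rule called 1, or 0.00676%, and that name, *Sox18*, lies in a displaced group and was not called with the row order restored (adjusted p = 0.969 in limma). At an unadjusted p under 0.05 the 10 genes again gave 0, against 3.5% of all names. On the recovered reads, edgeR called 0.00676% of all names at an adjusted p under 0.05 and DESeq2 0.26%, or 0.0135% and 0.714% with the clone as a block, and each of these fits called 0 of the 10 at either threshold. The ranges of the passages overlapped for 10 of the 10, and 2.43% of all names had ranges that did not. The median change of the 10 was 0.06 on the log2 scale, beside -0.0037 for all names tested, and 6 of 10 were higher at passage 16.

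*Cdkn2a* had the largest estimate, 0.27 higher at passage 16 on the log2 scale (SE 0.14, 95% interval -0.05 to 0.59, adjusted p = 0.947 in limma). *Ccnd1* was estimated at -0.23 (SE 0.19, 95% interval -0.68 to 0.21, adjusted p = 0.947 in limma), lower in 3 of 4 clones. It was -0.11 without clone 20 at passage 16, -0.12 without clone 30 at passage 6 and -0.38 without clone 30 at passage 16. The narrowest interval was that of *Cdk4*, -0.10 to 0.15. In this fit, which has no term for the clone, the lowest bound among the 10 intervals was 0.626-fold, for *Ccnd1*, and the highest 1.51-fold, for *Cdkn2a*. A two-sided exact permutation test of 4 against 4 libraries gave p between 0.114 and 1 for the 10 genes, and the smallest p that it allows is 0.0286.

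Compared within clones, as the clone numbers allow, 0 of 10 genes moved the same way in 4 of 4 clones, against 17.2% of all names. *Ccne1* differed by 0.47 in clone 6 and by -0.50 in clone 20 (log2, passage 16 minus passage 6), and by -0.03 and 0.05 in clones 30 and 36, so its mean change of -0.0027 joins opposite differences. *Ccnd2* differed by 0.43 in clone 20 and by -0.23, -0.59 and -0.14 in clones 6, 30 and 36. *Cdkn2b* differed by -0.70 in clone 6 and by 0.41 in clone 30. *Cdkn2a* differed by 0.27, 0.36 and 0.53 in clones 20, 30 and 36 and by -0.08 in clone 6. With the clone as a replicate block in limma, the number of names called went from 1 to 0, 884 names (5.98%) had an unadjusted p under 0.05, and the 10 genes kept adjusted p of at least 0.726.

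**Figure D3:**
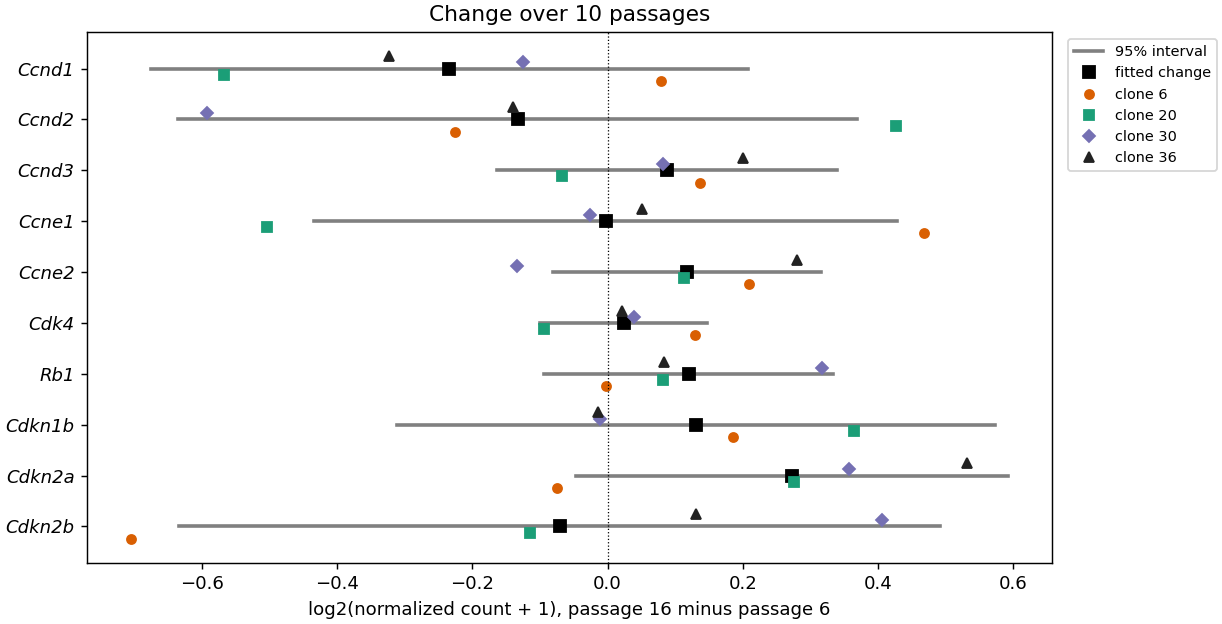
Difference in log2(normalized count + 1), passage 16 minus passage 6. Black squares are the fitted changes, grey bars their 95% intervals in the fit without a term for the clone, and coloured symbols the 4 clones. All 10 intervals cross 0, and the clones of *Ccne1* range from -0.50 to 0.47.

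The clones were compared as well, since each was seen at both passages. A limma F test of the clone, with the passage in the fit, called 20 of 14791 names (0.135%) and 0 of the 10 genes, and gave an unadjusted p under 0.05 for 3 of the 10, against 10.7% of all names. These were *Cdkn1b* (adjusted p = 0.371), *Ccnd3* (adjusted p = 0.429) and *Ccnd1* (adjusted p = 0.457). The mean of *Cdkn1b* over both passages was 1358 normalized counts in clone 6, 1089 in clone 36, 916 in clone 20 and 876 in clone 30. *Ccnd3* ran against it, with 7742 in clone 20, 7587 in clone 30, 6376 in clone 6 and 6310 in clone 36. *Ccnd1* was 4052 in clone 30 and between 2734.5 and 3110 in the others. With the row order restored the F test called 85 names (0.581%) and still 0 of the 10, with 0.151 the lowest adjusted p, that of *Cdkn1b*, while 3 of the 10 and 14.6% of all names had an unadjusted p under 0.05.

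Over the 8 libraries several of the genes varied together, which is given as a description because the libraries share clones and normalization. *Ccne1* followed *Ccnd1* (Pearson r = 0.81, Spearman rho = 0.88) and *Cdk4* (r = 0.81, rho = 0.83). *Ccnd2* ran against *Ccne1* (r = -0.78, rho = -0.64), and *Ccnd3* against *Cdkn1b* (r = -0.73, rho = -0.88). The 4 libraries with the highest *Ccne1*, clones 20 and 30 at passage 6 and clones 6 and 30 at passage 16, also had the 4 highest values of *Ccnd1*. *Cdk4*, in contrast, spanned only a 1.14-fold range over the libraries.

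Markers of other cell types moved with several of the genes. The summed level of 6 primitive endoderm markers (*Gata4*, *Gata6*, *Sox7*, *Dab2*, *Pdgfra* and *Foxa2*) was 3985, 3192, 2348 and 7704 normalized counts at passage 6 (clones 6, 20, 30 and 36), and 2619.9, 6357, 1757 and 5402 at passage 16. None of the 6 was at 0 in any library. *Ccnd2* followed this sum (r = 0.90, rho = 0.88), while *Ccne1* (r = -0.86) and *Ccnd1* (r = -0.79) ran against it over the same 8 libraries. The sum of 4 early mesendoderm markers, with the row order restored, was 333, 223, 202 and 269 at passage 6, and 228, 425, 206 and 362 at passage 16. This mesendoderm sum ran against *Ccnd1* (r = -0.93, rho = -1) and *Ccne1* (r = -0.89, rho = -0.88), and also against *Cdk4* (r = -0.78, rho = -0.69). *Eomes* alone held most of it, with 267, 156, 112 and 211 at passage 6, and 167, 343, 138 and 277 at passage 16. *Mixl1*, in contrast, was highest, at 28.7, in clone 30 at passage 6, where the sum was lowest. *Cdkn1b* had r = 0.27 with the primitive endoderm sum and r = -0.78 (rho = -0.81) with the sum of 5 trophoblast markers. That trophoblast sum leans on *Krt7*, which gave 639 of 913 in clone 6 at passage 6 and had its counts re-assigned in 7 libraries. *Cdkn2a* had r = 0.21 with the primitive endoderm sum and r = 0.66 (rho = 0.67) with the early mesendoderm sum. The part of such cells in these differences was not tested, and in RNA from whole cultures a larger share of cells and more RNA per cell cannot be told apart.

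**Figure D4:**
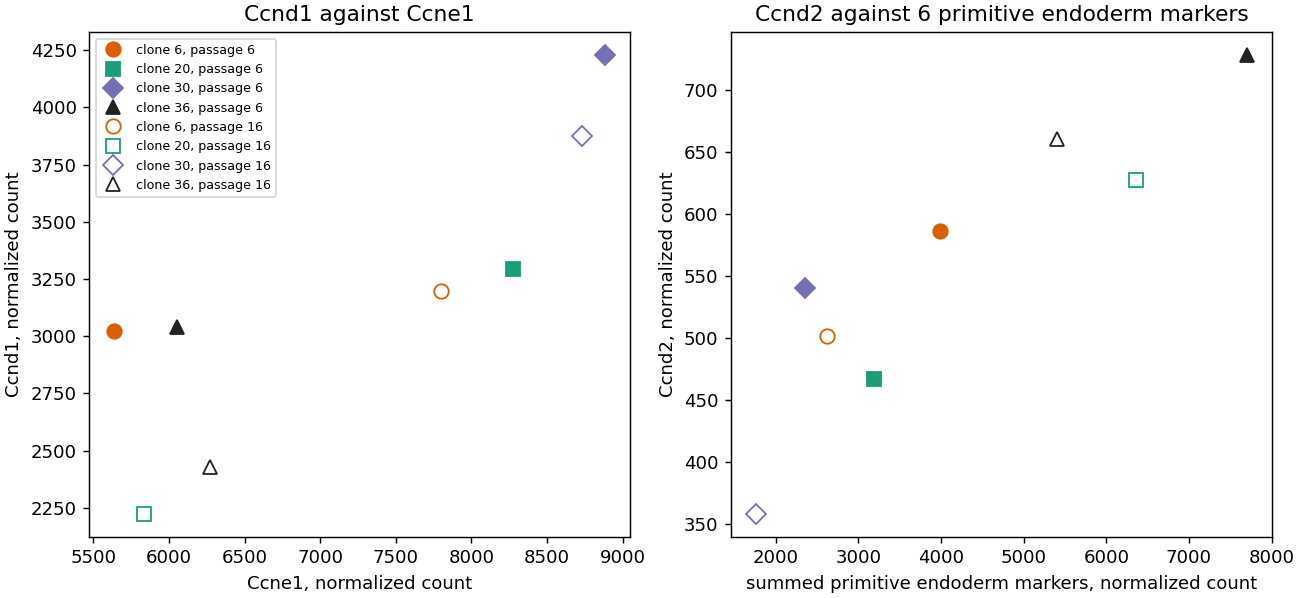
Left, *Ccnd1* against *Ccne1*; right, *Ccnd2* against the summed level of 6 primitive endoderm markers, both in normalized counts, with 1 point per library, filled at passage 6 and open at passage 16. The axes do not start at 0, and the highest *Ccnd2*, 728, is in the library with the highest marker sum, 7704.

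The label of the cells was checked against other lists. The 8 pluripotency markers were present in every library, with a summed level between 103619 and 112975 normalized counts, and *Pou5f1* lay between 23589 and 29184. Of 8 fibroblast markers, which feeder cells would carry, 7 were above 0 in all libraries and *Lum* was at 0 in clone 36 at passage 6, with sums between 3889.8 and 5907 at passage 6 and between 4539 and 5935 at passage 16. Sums of 5 trophoblast markers lay between 440.3 and 1435, and of 4 early mesendoderm markers between 202 and 425, with the row order restored. The part of these cells in the results was not tested.

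No marker passed the adjusted threshold between passages in limma: 0 of 8 pluripotency, 0 of 7 fibroblast, 0 of 6 primitive endoderm, 0 of 4 trophoblast and 0 of 4 mesendoderm markers tested. Of the 8 pluripotency markers 3 had an unadjusted p under 0.05 in limma, against 3.5% of all names. *Nanog* was higher at passage 16 by 0.27 and *Klf4* by 0.28 on the log2 scale, each in 4 of 4 clones, and *Utf1* was estimated at -0.18, lower in 4 of 4. Of all names, 17.2% moved the same way in 4 of 4 clones. *Nanog* alone was called, in DESeq2 with the clone as a block. The fibroblast markers ranged from *Thy1* at -0.08 to *Dcn* at 0.57, and the primitive endoderm markers from *Sox7* at -0.45 to *Dab2* at -0.05. *Krt7*, *Gsc* and the mesendoderm gene *T* had displaced counts, so their deposited changes are not given.

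The other kinases and activators of G1 were read from the same fit, and 0 of 6 passed the adjusted threshold. *Cdk2*, the partner of the E cyclins, had 1262 normalized counts per kilobase and *Cdk6*, the other partner of the D cyclins, 25.0, against 6564 for *Cdk4*. *Cdk6* had 269.9, 487, 339 and 290.2 normalized counts at passage 6, and 187, 251, 249.5 and 229 at passage 16. It was lower in 4 of 4 clones, by 0.57 on the log2 scale (SE 0.20, unadjusted p = 0.0212 and adjusted p = 0.947 in limma), and the passages did not overlap. The kinase that activates Cdk2 and Cdk4 was seen at 1506 normalized counts per kilobase for *Cdk7*, 521 for *Ccnh* and 262 for *Mnat1*. *Cdc25a*, the phosphatase that removes inhibitory phosphates, had 726.

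Of the other CDK inhibitors, 0 of 4 passed. *Cdkn1a*, which encodes p21, had 701 normalized counts per kilobase, above *Cdkn1b*, *Cdkn2a* and *Cdkn2b* alike. *Cdkn2d* had 185 and *Cdkn2c* 7.60, with 4.01 to 33.3 normalized counts per library. *Cdkn1c*, an imprinted KIP gene, had 718, 969, 1071 and 413 normalized counts at passage 6 (clones 6, 20, 30 and 36), and 553, 714, 799.9 and 386 at passage 16. It was lower at passage 16 in 4 of 4 clones (-0.33 on the log2 scale, adjusted p = 0.947 in limma and 0.726 with the clone as a block), and clone 30 was the highest and clone 36 the lowest at both passages.

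Among 12 genes of pocket proteins, E2F and DP factors 0 passed. The relatives of *Rb1*, *Rbl1* and *Rbl2*, had 165 and 49.9 normalized counts per kilobase, both below the 227 of *Rb1*. The most abundant E2F was *E2f4*, a factor that acts mainly with pocket proteins as a repressor, at 2306. The activators *E2f1*, *E2f2* and *E2f3* had 514, 88.6 and 349.97. *E2f5*, *E2f6*, *E2f7* and *E2f8* had 578, 573, 138 and 451. The DP partners *Tfdp1* and *Tfdp2* had 1931 and 409. *E2f1* was higher at passage 16 in 4 of 4 clones, by 0.21 on the log2 scale (SE 0.13, adjusted p = 0.947 in limma). *Rbl1* was also higher in 4 of 4 clones, by 0.12, and *E2f6* was lower in 4 of 4, at -0.09. Of all names, 17.2% moved the same way in 4 of 4 clones.

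Of 9 regulators of cyclin, p27 or INK4 levels 0 passed. *Cks1b* and *Skp2*, which together mark p27 for degradation, had 2874 and 309 normalized counts per kilobase. *Cks1b* was lower at passage 16 in 4 of 4 clones, at -0.08 on the log2 scale (adjusted p = 0.947 in limma), and the passages did not overlap. *Fbxw7*, which targets cyclin E, had 335, and *Ambra1*, which targets the D cyclins, 437. *Fzr1*, an activator of the anaphase-promoting complex, had 1084 and *Fbxo5*, its inhibitor, 1004. *Mycn* and *Myc* had 1078 and 358, and *Bmi1*, a Polycomb gene that represses the *Cdkn2a* locus, 294. *Myc* ranged from 596 to 1431 normalized counts over the libraries, with both extremes at passage 6.

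The 19 E2F target genes, which the pathway drives, gave 0 calls. At passage 16, 17 were higher and 2 lower, with a median of 0.07 on the log2 scale, beside -0.0037 for all names tested. Read in the same libraries, these genes are not independent, so the count is only a description. They ranged from *Mybl2* at -0.09 to *Rrm2* at 0.26. Their summed level was 158689.6, 154472, 180609 and 157147 normalized counts at passage 6 (clones 6, 20, 30 and 36), and 184608, 150708, 183856 and 161764 at passage 16. The sum was higher at passage 16 in clones 6, 30 and 36, by far the most in clone 6, and lower in clone 20. It was the highest in both libraries of clone 30 and in clone 6 at passage 16, which also had high *Ccne1*, but not in clone 20 at passage 6, where *Ccne1* was 8274. *Cdkn2b* ran against this sum (r = -0.87, rho = -0.83 over 8 libraries), and *Cdk4* followed it (r = 0.77, rho = 0.79).

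*Ccnd2* and *Cdkn2b* were compared with the other names because, of the 10 genes, these had the widest range and the next widest, 1.02 and 0.93 on the log2 scale. Among 9443 names with a mean of at least 100 outside the displaced groups, *Epc2* (r = 0.98), *Prex2* (r = 0.98) and *Rint1* (r = 0.98) were most like *Ccnd2* over the 8 libraries. *Shmt2* (r = 0.97), *Atf5* (r = 0.95) and *Chmp2a* (r = 0.94) were most like *Cdkn2b*. For *Ccnd2* and *Cdkn2b*, 46 and 47 names exceeded r = 0.9, so that many names share each pattern in 8 libraries.

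Some of the counts may have gained or lost reads where a gene overlaps a neighbour, and the direction was not tested. Exons of another gene on the opposite strand cover 31.2% of the exon bases of *Cdk4* (*Tspan31*), 29.4% of *Ccnd1* (*LTO1*), 19.03% of *Ccne2* (*Ints8*) and 14.8% of *Ccnd3* (*Bysl*) in the GENCODE M21 annotation of GRCm38. The kit marked the strand, but whether the counting used it is not stated in the sources used here, and its part in the levels was not tested. *Ccne1*, *Cdkn1b*, *Cdkn2a* and *Cdkn2b* have no such overlap.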

How the data were processed

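PolyA+ RNA of 4 ES cell clones at passages 6 and 16 was sequenced. The authors aligned single-end reads to GRCm38 with TopHat2 2.0.10 and Bowtie 1.0.0, counted reads per gene with HTSeq 0.5.3p9 and used DESeq2. The deposited signal per gene is the count divided by a DESeq2 size factor, and multiplying back gave whole reads for 100% of the values of each library (tolerance 1e-06). Samples were grouped by passage and paired by clone from the titles. Deviations from the passage means correlated between the passages of a clone at r = 0.10 (clone 6), 0.27 (clone 20), 0.70 (clone 30) and 0.43 (clone 36), and clone 6 at passage 6 correlated better with clone 36 at passage 16 (r = 0.28).

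The test was limma 3.58.1 in R 4.3.3 (two-sided; lmFit, then eBayes with trend) on log2(normalized count + 1) of names averaging 10 or more, with no term for the clone. This scale understates fold changes of low genes. edgeR 4.0.16 and DESeq2 1.42.0 ran on the recovered reads as alternatives, with the other scalings, filters, pseudocounts and left-out libraries named in the closing section. p-values measure the spread between these libraries. The limma passage fit, the limma clone test and the restoring of the row order were tested on simulated data. Levels were divided by the union of exons of the basic GENCODE M21 transcripts. The members and gene lists were chosen with earlier results of these data known. Named genes are all members, all listed G1 partners, the extremes of other lists, and for the 2 widest-ranging members the 3 names most alike; *Cdk1*, *Sox18* and further listed genes were named after their values were seen.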

Additional observations from a re-analysis of the deposited data

Results flagged for a closer look

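Each gene was examined in each passage for a library far from the other 3 by Dixon's test. None of the 20 groups was flagged, where chance flags about 1.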

How the results depend on the processing

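The number of names called between passages was 44 in DESeq2, 0 among names outside the displaced groups and 0 with the row order restored; with the clone as a replicate block it was 0 in limma, 2 in edgeR and 98 in DESeq2, and between 1 and 26 without single libraries or clones. The number called between clones was 62 outside the displaced groups, 85 with the order restored, and between 0 (without clone 20) and 95 (without clone 6) without single clones. The 10 genes had an adjusted p above 0.05 in all 260 changes and all 140 clone tests recomputed, and the block changed no call among them. Direction held in 241 of the 260. The exceptions outside left-out libraries were *Ccne1* at 0.0024 with TMM, 0.016 with quantile normalization and 0.0012 with the replicate block in edgeR. Without single libraries or clones the log2 changes ranged from -0.38 to -0.11 for *Ccnd1*, 0.02 to 0.16 for *Ccnd3*, 0.06 to 0.20 for *Ccne2*, 0.05 to 0.18 for *Rb1*, 0.19 to 0.39 for *Cdkn2a*, -0.16 to 0.16 for *Ccne1*, -0.32 to 0.049 for *Ccnd2*, -0.011 to 0.063 for *Cdk4*, -0.0045 to 0.25 for *Cdkn1b* and -0.26 to 0.14 for *Cdkn2b*; *Cdkn1b* crosses 0 without clone 6 at passage 16, the library with the chromosome 6 shift. Levels per kilobase moved with the length used, an alternative chosen after seeing the data. With the longest RefSeq mRNA they were 3315 for *Ccnd3*, 325 for *Cdkn2a* and 443 for *Cdkn1b*. Over all annotated exons they were 4148 for *Cdk4*, 2699 for *Ccne1*, 798 for *Ccnd3*, 175 for *Rb1*, 159.9 for *Ccne2* and 59.4 for *Ccnd2*. Over all annotated exons the mean share of the D cyclins was 43.6% for *Ccnd1*, 3.99% for *Ccnd2* and 52.4% for *Ccnd3*, the share of *Ccne1* among the E cyclins 94.3%, and the mean ratios were 4.59 for D cyclins over INK4 genes and 1.86 for E over D cyclins. With the longest RefSeq mRNA the ratio of E cyclins to *Cdkn1b* was 8.996.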
